A study of Homo sapiens with 16 samples.

Results

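Human chromosome 19 carries 245 zinc finger gene promoters among the 21857 promoters mapped in this study, and these promoters are described here. They were chosen by position and name alone: the promoter lay on chromosome 19 and its gene symbol began with ZNF or ZFP followed by a number, with the unrelated CCCH gene ZFP36 left out. The rule used no measured value, though it was set with earlier results of these data known. The promoters belonged to 245 different genes, of which 5 were named ZFP. GENCODE annotated 232 of the genes as protein coding and 8 as another type, and 5 symbols were not matched. The annotated start of transcription (TSS) of 225 of them was at most 50 bp from the start of a GENCODE transcript on GRCh37, against 79.9% over all promoters.

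Nucleosomes were mapped by mTSS-seq in GM12878, a human B cell line immortalized with Epstein-Barr virus, after 20, 40 or 60 min with heat-killed Salmonella typhimurium (HKST) or without treatment. In mTSS-seq, chromatin is cut with micrococcal nuclease (MNase), and fragments from 2 kb windows around the TSS are captured and sequenced. Each condition had a light digest with 20 U and a heavy digest with 200 U of MNase, with 2 replicates of each, 16 samples in all. The authors deposited 1 table per condition and digest, in which both replicates are pooled, so no value here has a spread between replicates and no test between conditions was possible.

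All values are rates of fragment centers, scaled to the sequencing depth of each table (rpm), at 10 bp steps along each promoter. HKST cells of 40 and 60 min were each compared with the same untreated tables, so both comparisons share their reference. The tables of 20 min HKST, as used here, broke off in a partial line and held 2801 and 6779 promoters and none of the 245. The untreated heavy table also broke off in a partial line, after the first 16260 promoters of the full list. So 185 of the 245 were in all 6 tables used, and the other 60, listed after that point, had no untreated heavy value. Depth, recovered from the smallest step of the values, was 9.72, 9.43 and 10.1 M fragments in the light digests of untreated, 40 min and 60 min cells, and 5.12, 3.27 and 7.04 M in the heavy digests (M, 1e6). With 1 pooled table per condition, a difference between conditions cannot be told apart from a difference in digestion between the tubes.

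Most genes of this class encode proteins with tandem C2H2 zinc fingers, which read DNA, behind a KRAB domain, which binds the corepressor TRIM28. Through TRIM28 and the histone methyltransferase SETDB1, many of them silence transposable elements, and the genes themselves lie in clusters that grew by tandem duplication. On chromosome 19, the 245 promoters fell into 16 runs when a gap of 1 Mb or more was taken to end a run, and 7 runs of at least 10 promoters held 225 of them. The results turn on the run from ZNF101 to ZNF254 at 19.8 to 24.3 Mb in band 19p12, called the 19p12 run. It held 33 promoters, 24 of them in all 6 tables, and includes ZNF91, which silences SVA elements, and ZNF93, which silences older L1 elements.

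The bases just upstream of the TSS are shown for 4 promoters of the 19p12 run and for 4 of other runs, because the short words marked in them were counted over all promoters. Each sequence runs from 120 bp to 1 bp upstream of the TSS, 5′ to 3′ on the strand of the gene, on GRCh37. Capitals mark the words CCAATCA (the box bound by NF-Y, with its flank), CGGAAG (the core of ETS factor sites) and ACTACAT, on either strand.
ZNF91, chr19:23578270-23578389, minus strand: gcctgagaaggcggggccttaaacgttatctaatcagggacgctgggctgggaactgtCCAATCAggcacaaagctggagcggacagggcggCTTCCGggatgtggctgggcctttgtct
ZNF254, chr19:24269856-24269975, plus strand: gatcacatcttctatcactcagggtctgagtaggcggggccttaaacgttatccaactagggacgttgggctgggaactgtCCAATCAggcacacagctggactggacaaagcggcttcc
ZNF93, chr19:20011602-20011721, plus strand: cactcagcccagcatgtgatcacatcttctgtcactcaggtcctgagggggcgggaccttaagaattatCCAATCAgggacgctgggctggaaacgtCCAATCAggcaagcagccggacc
ZNF675, chr19:23870018-23870137, minus strand: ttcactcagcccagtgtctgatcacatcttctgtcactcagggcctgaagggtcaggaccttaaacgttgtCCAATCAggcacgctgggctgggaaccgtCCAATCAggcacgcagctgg
ZNF224, chr19:44598362-44598481, plus strand: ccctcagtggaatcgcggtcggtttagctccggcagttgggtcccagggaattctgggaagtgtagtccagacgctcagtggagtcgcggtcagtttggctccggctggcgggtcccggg
ZNF614, chr19:52531681-52531800, minus strand: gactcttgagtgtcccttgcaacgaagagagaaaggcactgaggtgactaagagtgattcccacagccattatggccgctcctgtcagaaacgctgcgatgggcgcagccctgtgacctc
ZNF823, chr19:11849761-11849880, minus strand: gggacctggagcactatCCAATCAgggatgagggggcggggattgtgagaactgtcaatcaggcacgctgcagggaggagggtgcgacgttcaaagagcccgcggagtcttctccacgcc
ZNF274, chr19:58694276-58694395, plus strand: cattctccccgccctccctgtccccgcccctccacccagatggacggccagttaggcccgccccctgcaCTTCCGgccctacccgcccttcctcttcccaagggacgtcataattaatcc
All 4 promoters of the run carry CCAATCA in this stretch, and ZNF93 and ZNF675 carry it at 2 places. ZNF823 is the only one of the other 4 shown that has it here.

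Downstream of the TSS, many genes of the run share a 12-base word at the end of exon 1, shown here because it gives a second anchor for lining up these promoters. Capitals mark the word, and each excerpt is 30 bases on the strand of the gene.
ZNF91, chr19:23578114-23578143, minus strand: ctggaagccTAGAAATGGTGAgactgccag
ZNF254, chr19:24270123-24270152, plus strand: ctagaagccTAGAAATGGTGAgaatgccag
ZNF93, chr19:20011884-20011913, plus strand: ctggaagccTAGAAATGGTGAgagtgccgg
ZNF675, chr19:23869820-23869849, minus strand: ctggaagccTAGAAATGGTGAgagttacgg
ZNF98, chr19:22604984-22605013, minus strand: ttggaagccTAGAAATGGTGAgagtgccga
The word TAGAAATGGTGA was searched on the strand of the gene within 300 bp of the TSS on either side. It was present in 25 of the 33 promoters of the run and in 0 of the other 212 on chromosome 19. It was also found at 5 of the 288 zinc finger promoters of other chromosomes and at 31 of all 21857. It began 87 to 203 bp after the TSS, with a median of 144 bp. In all 25, the first exon of the GENCODE transcript ended at base 8 of the word, and in 20 an annotated start codon began at base 6. The word was picked after the sequences had been read, and its occurrences are not independent, since these promoters are similar in sequence.

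Averaged over promoters, the chromosome 19 zinc finger genes had a taller +1 nucleosome, the first nucleosome downstream of the TSS, than every set they were compared with. The summed light and heavy profile of the 185 promoters peaked 145 bp downstream of the TSS, with 3.82, 4.14 and 3.55 rpm in untreated, 40 min and 60 min cells. The 209 zinc finger promoters of other chromosomes peaked at 2.53, 2.56 and 2.37 rpm, and all 16260 promoters at 2.34, 2.39 and 2.20 rpm. Relative to the mean of the 2 kb window, the untreated peak was 1.53 times as high at the chromosome 19 zinc finger promoters, 1.10 times at those of other chromosomes, 0.848 times at the 949 other promoters of chromosome 19 and 0.982 times over all promoters. The peak stood in both digests of untreated cells, at 1.96 rpm in the light and 1.86 rpm in the heavy one.

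**Figure D1:**
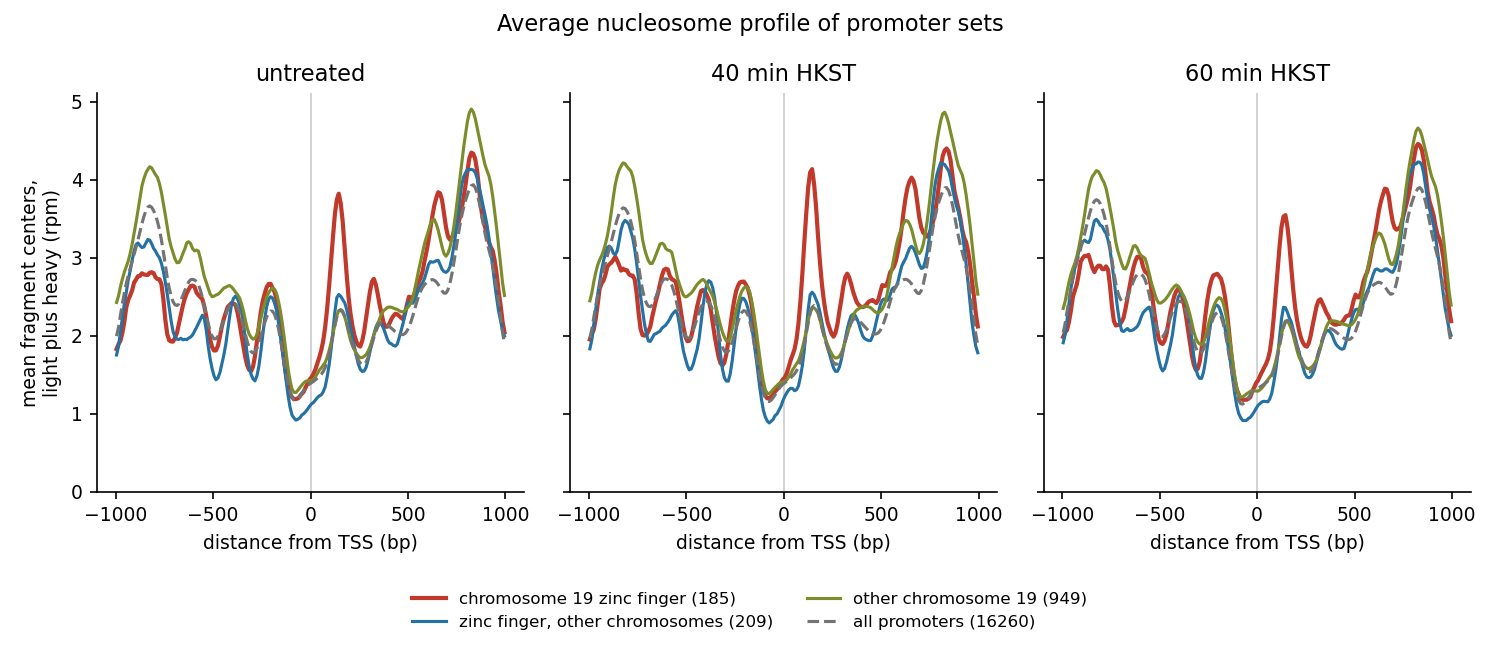
Mean rate of fragment centers (rpm, y axis) by distance from the TSS (bp, x axis) for the chromosome 19 zinc finger promoters (185), zinc finger promoters of other chromosomes (209), other chromosome 19 promoters (949) and all promoters (16260), with light and heavy digests summed, in untreated, 40 min and 60 min HKST cells. The chromosome 19 zinc finger promoters have the highest +1 peak in all 3 panels, 3.82, 4.14 and 3.55 rpm.

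Promoter by promoter, the +1 window from 50 to 250 bp was above its own 2 kb mean at 91, 87 and 82 of 183 chromosome 19 zinc finger promoters in untreated, 40 min and 60 min cells. Over all promoters this share was 31.7%, 32.3% and 29.0%, and among zinc finger promoters of other chromosomes it was 30.0% in untreated cells. The median rate in the window in untreated cells was 1.10 rpm in the light and 1.17 rpm in the heavy digest, against 0.53 and 0.57 rpm at zinc finger promoters of other chromosomes. Promoters outside the 19p12 run also stood above the other sets, with 71 of 160 over their 2 kb mean in untreated cells. Within the 19p12 run the count was 20 of 23. Other runs differed widely in the median log2 ratio of this window to the 2 kb mean in untreated cells. It was 0.54 in the run from ZNF175 to ZNF331 and 0.21 in that from ZNF575 to ZNF296. In the largest run, 60 promoters from ZNF628 to ZNF446, it was -0.45, and from ZNF557 to ZNF846 it was -0.36. The taller +1 nucleosome was therefore not shared by all runs.

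The tallest +1 nucleosomes were at ZNF226 and ZNF136, which encode KRAB zinc finger proteins and were named after their values had been seen. ZNF226 (TSS at chr19:44669215) held 273, 262 and 322 fragments in the light digests of untreated, 40 min and 60 min cells, and 63, 39 and 71 in the heavy digests. Its +1 window stood 1.77, 1.74 and 1.71 above the 2 kb mean on the log2 scale, so the height differed little between conditions while the light digest gave more at each time. ZNF136 (chr19:12273872) held 154, 183 and 163 fragments in the light and 98, 85 and 110 in the heavy digests, with log2 heights of 1.84, 2.07 and 1.68. The light over heavy ratio in the +1 window was 1.17, 1.20 and 1.63 (log2) at ZNF226 and -0.26, -0.41 and 0.05 at ZNF136, so promoters with equally tall peaks differed in how the digests released them.

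Several short words around the TSS also differed in frequency from other promoters, and others differed little. From 250 bp upstream to 50 bp downstream, and on both strands, the ETS core CGGAAG occurred in 125 of the 245 promoters (51.0%), against 37.8% of zinc finger promoters on other chromosomes and 21.5% of all promoters. The GC box GGGCGG occurred in 63.3%, against 52.9% of all promoters. The nearest sets were close to this, with 59.4% of zinc finger promoters on other chromosomes and 60.4% of other chromosome 19 promoters. The NF-kB-like word GGGACTT was found in 30 (12.2%), against 4.92% of all promoters, and in 14 of these 30 it was followed by CCG, so that it overlapped an ETS core read on the other strand. The TATA box word TATAAA was found in 8 (3.27%), of which 7 were in the 19p12 run. Its 11 matches had a median position of -235 bp from the TSS, so this counts the word and not TATA boxes placed near the TSS. The word was in 10.7% of all promoters and 5.21% of zinc finger promoters on other chromosomes. The word ACTACAT, which resembles the ZNF143 core ACTACAA and was added after the sequences had been read, was in 40 (16.3%), none of them in the 19p12 run, against 2.07% of all promoters. The words GCATGCG (NRF1), CTCGCGA (ZBTB33), AAGATGG (YY1) and ACTACAA itself were in 5.71%, 3.27%, 8.16% and 4.90%. Over all promoters these shares were 4.43%, 2.94%, 5.59% and 3.14%. At zinc finger promoters of other chromosomes they were 5.21%, 2.43%, 5.56% and 6.25%, and at other chromosome 19 promoters 5.73%, 2.70%, 6.80% and 2.95%.

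The height of the +1 nucleosome differed between promoters with and without the ETS core. In untreated cells the median log2 height was 0.23 at the 96 chromosome 19 zinc finger promoters with the core and -0.26 at the 89 without it. Outside the 19p12 run the medians were 0.12 with and -0.38 without it. Over all promoters they were -0.61 with and -0.53 without the core. Such a contrast was not particular to the ETS core. At the chromosome 19 zinc finger promoters the medians were 0.25 with and -0.19 without CCAATCA. They were -0.06 with and 0.19 without GGGCGG, and -0.34 with and 0.12 without GGGACTT. For ACTACAT they were -0.008 and 0.003. A match to a short word describes the sequence only, and binding was not measured.

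Measured against the 2 kb mean, the 19p12 run stood apart in the region just over the TSS, which is depleted of nucleosomes at most promoters. The run was singled out among the 16 runs after their values had been seen, so its difference from the others is a description and not a test. Filling was taken as the log2 ratio of the summed light and heavy rate from -100 to 50 bp over the mean of the 2 kb window. In untreated cells the median was 0.43 at the 24 promoters of the run, against -1.53 at the other chromosome 19 zinc finger promoters, -1.60 at zinc finger promoters of other chromosomes, -1.83 at other chromosome 19 promoters and -1.63 over all promoters. For the same promoters the median of the run was 0.17 at 40 min, against -1.61 at the other chromosome 19 zinc finger promoters, and 0.32 at 60 min, against -1.50. The size of these medians depended on the window and on the missing bins. With a window from -150 to 0 bp the median of the run in untreated, 40 min and 60 min cells was 0.14, -0.07 and 0.22, against -1.43, -1.42 and -1.35 at the others. With missing bins taken as 0, a choice made after seeing the data, it was 0.69, 0.62 and 0.61, against -1.32, -1.47 and -1.28. From the light digest alone, also chosen after seeing the data, the 60 min median of the run was 0.0025, against -1.37. In untreated cells 13 of 24 promoters of the run were above their 2 kb mean, against 20 of 160 others, with a background over all promoters of 18.4%. Over all 33 promoters of the run the count was 21 at 40 min and 21 at 60 min, against 26 and 25 of 209 others, with backgrounds of 20.7% and 19.9%.

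**Figure D2:**
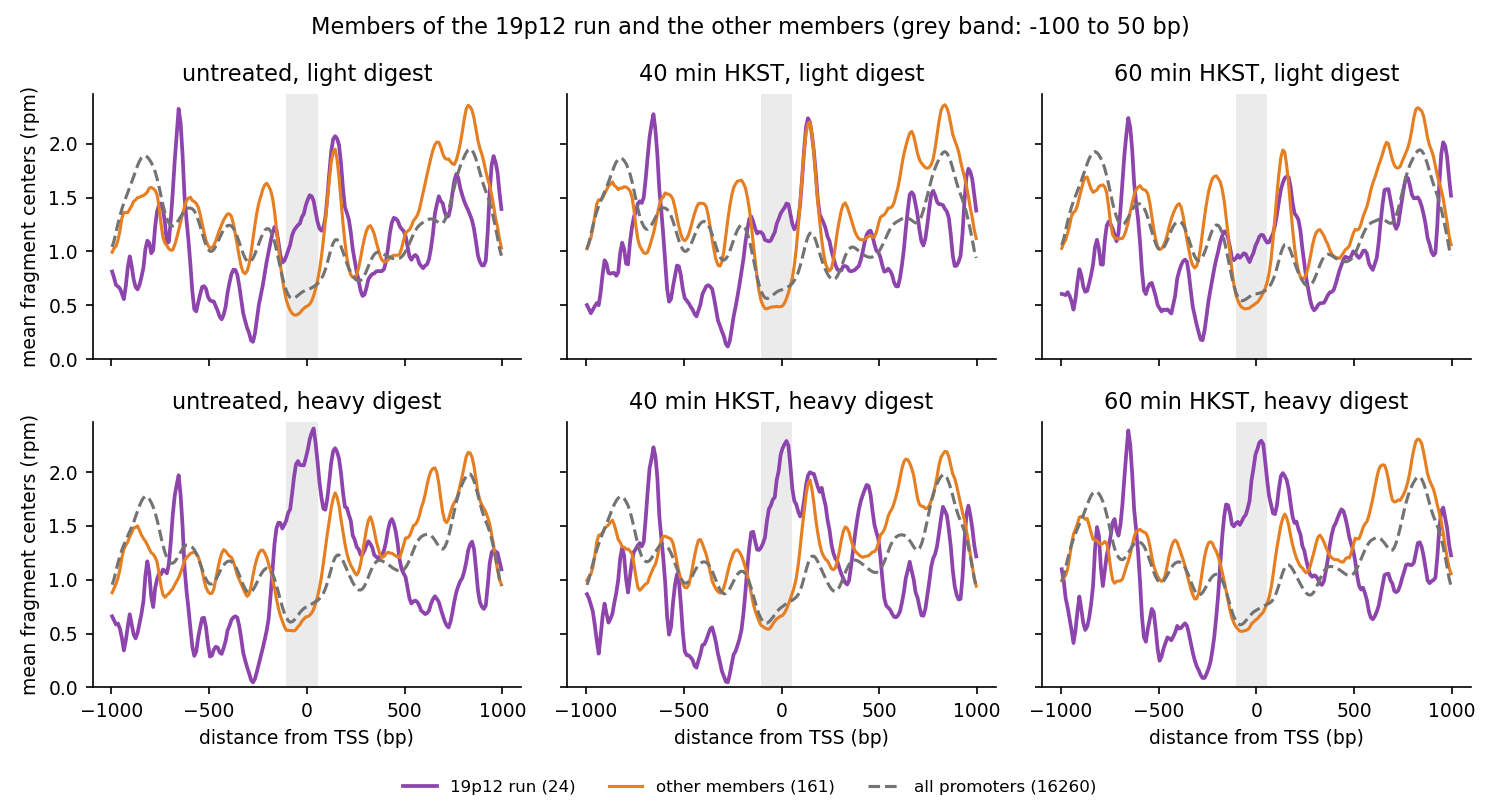
Mean rate of fragment centers (rpm, y axis) by distance from the TSS (bp, x axis) at promoters of the 19p12 run (24), the other chromosome 19 zinc finger promoters (161) and all promoters (16260), in both digests of the 3 conditions. Within the grey band, from -100 to 50 bp, the run lies above the others in all 6 panels, with a mean of 1.32 rpm in the light and 2.09 rpm in the heavy digest of untreated cells.

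The filled window of the run gave more in heavy than in light digests on average. In untreated cells its mean rate was 1.32 rpm in the light and 2.09 rpm in the heavy digest, while the other chromosome 19 zinc finger promoters had means of 0.48 and 0.61 rpm. The median light over heavy ratio in this window was -0.23, -0.27 and -0.39 (log2) in the run in untreated, 40 min and 60 min cells, with 8 of 23, 8 of 24 and 8 of 24 promoters above 0. The other chromosome 19 zinc finger promoters had medians of -0.02, 0.04 and 0.21. Fragments that survive a heavy digest are called MNase-resistant in the study, and those given up by a light one MNase-sensitive.

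The 9 promoters of the run that lacked an untreated heavy value showed the same picture in the tables they had. Of these, 8 were above their 2 kb mean in the untreated light digest, 8 and 8 in the light and heavy digests of 40 min, and 7 and 8 in those of 60 min. Of the 24 promoters with all tables, 12 were above 0 in all 3 conditions and 4 were below -1 in all 3. Of the other 160 promoters, 17 were above 0 and 92 below -1 in all 3.

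**Figure D3:**
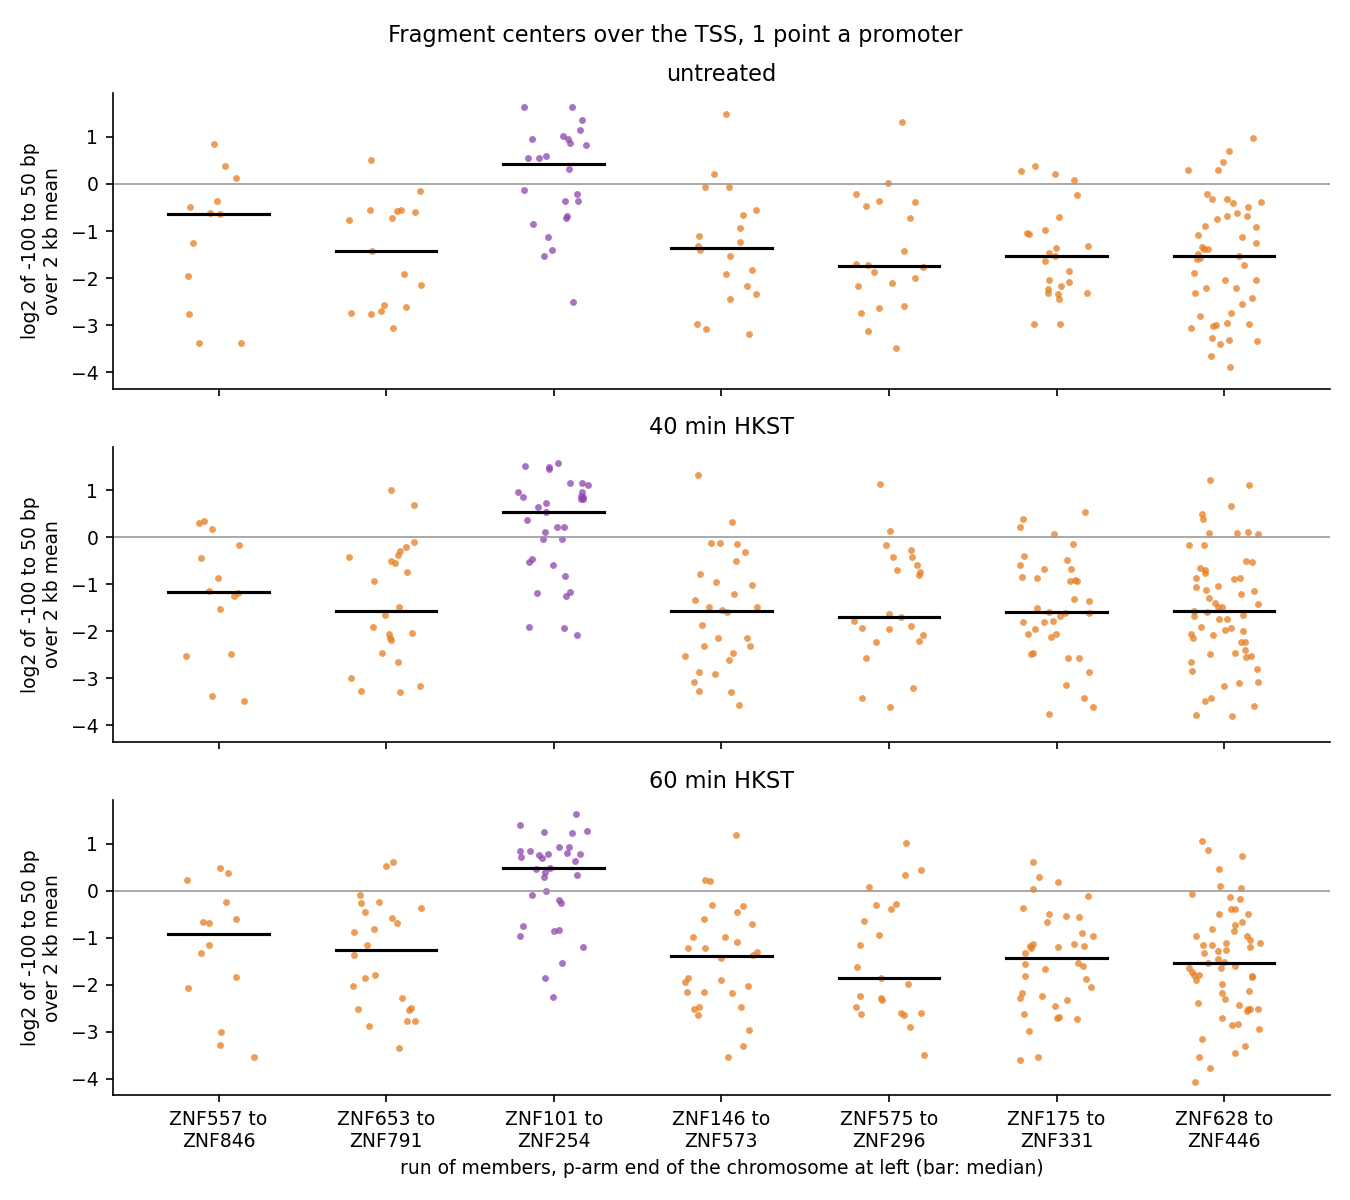
Log2 ratio of the rate from -100 to 50 bp over the 2 kb mean (y axis), 1 point a promoter, for the 7 runs of at least 10 chromosome 19 zinc finger promoters (x axis), in untreated, 40 min and 60 min cells, with the median of each run as a bar. The run from ZNF101 to ZNF254 has the only median above 0 in each panel, with 0.43, 0.53 and 0.47 over all its promoters with a value.

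Single genes of the run, named here after their values had been seen, spread widely. ZNF98 (chr19:22605148), a KRAB zinc finger gene, held 86, 82 and 47 fragments between -100 and 50 bp in the light digests of untreated, 40 min and 60 min cells, and 75, 55 and 109 in the heavy ones. Its rates were 3.53, 3.49 and 1.85 rpm in light and 5.88, 6.70 and 6.19 rpm in heavy digests, so the heavy value was the higher at every time. ZNF626 (chr19:20844402) had rates of 2.73, 3.22 and 1.72 rpm in light and 7.40, 5.32 and 4.13 rpm in heavy digests, and a log2 filling of 1.64, 1.52 and 1.23. ZNF492 (chr19:22817126) was filled to the same extent at each time, with log2 values of 1.63, 1.58 and 1.62. The heavy rate exceeded the light one in every condition at these 3 genes.

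ZNF91 and ZNF254 were filled less. ZNF91 (chr19:23578269) held 24, 16 and 17 fragments in light and 20, 12 and 16 in heavy digests, and its log2 filling was 0.60, 0.23 and 0.34. ZNF254 (chr19:24269976) held 31, 38 and 36 fragments in light and 19, 8 and 29 in heavy digests, with a log2 filling of 0.95, 0.96 and 0.84. Both promoters were above their 2 kb mean in all 3 conditions.

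Close relatives in the same run were below their 2 kb mean. ZNF675, which encodes a protein that binds TRAF6 and dampens NF-kB signaling, held 4, 0 and 3 fragments in light and 1, 1 and 2 in heavy digests, and its log2 filling was -1.40, -1.91 and -1.53. ZNF93 had log2 values of -0.72, -1.16 and -0.96, and ZNF431 of -0.86, -1.18 and -0.87. Both were less depleted than the median promoter outside the run (-1.53, -1.61 and -1.50). ZNF93 and ZNF675 carry the CCAATCA word and the 12-base word, as do ZNF91 and ZNF254. Neither word therefore separated promoters above their 2 kb mean from those below it within the run. ZNF676 had no fragment in either untreated table between -100 and 50 bp and was the only promoter of the run without CCAATCA. Only 2 CpG lay in its 300 bp around the TSS, the fewest of the run.

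Outside the run, 20 promoters were filled in untreated cells. ZNF383 (log2 1.48), ZNF229 (1.33) and ZNF536 (1.03) stood highest, and ZNF536, a non-KRAB gene known for repressing neuronal differentiation, lay alone at 30.9 Mb. ZNF229 held 31 fragments in the light and 61 in the heavy digest of untreated cells, and ZNF383 held 41 and 10. Filled promoters outside the run therefore included both heavy-rich and light-rich ones.

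Several measured properties moved with the filling of the run, and their part in it was not tested. The authors discarded reads that did not align uniquely, and the promoters of the run are similar in sequence. Identity was taken over 200 bp on either side of the TSS. Over pairs within the run its median was 75.25%, against 59.25% over pairs of the other chromosome 19 zinc finger promoters. The best match of each to another chromosome 19 zinc finger promoter had a median identity of 84.75%, against 65.75% for the others. Bins without a value made up a median of 28.3% of the 2 kb window in the run, against 12.5% at the others. From -1000 to -500 bp, 52.6% of bins were missing in the run, against 29.5% at the others and 17.6% over all promoters, which bears on the 2 kb mean. With the +1 window in place of the 2 kb mean as reference, the median of the run was -0.37, -0.42 and -0.52 in untreated, 40 min and 60 min cells. It was -1.11, -1.25 and -1.08 at the others, and -0.50, -0.54 and -0.47 over all promoters. By this measure the run lay above the others but near all promoters, and below all promoters at 60 min. The rate itself was also higher: the summed median from -100 to 50 bp was 2.65, 2.22 and 2.59 rpm in the run, against 0.68, 0.67 and 0.72 rpm at the others. The run had a lower median GC content (54.5% against 60.0%) and fewer CpG (10 against 21 in 300 bp).

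The CCAATCA word was added after the sequences had been read. It lay between 250 bp upstream and 50 bp downstream of the TSS at 32 of the 33 promoters of the run, against 35 of the other 212 (16.5%) and 7.59% of all promoters. Outside the run, the 28 promoters with the word had a median filling of -1.36 in untreated cells, and the 133 without it had -1.54.

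Lining up the promoters of the run on the 12-base word instead of the TSS gave a taller peak in the average profile. At the 17 promoters with the word and all 6 tables, the summed untreated profile peaked at 5.52 rpm, 10 bp upstream of the start of the word, against 4.72 rpm when the same promoters were lined up on the TSS. At 40 min the peaks were 5.71 and 4.52 rpm, and at 60 min 4.85 and 3.99 rpm. The ratio of the peak to the lowest point within 300 bp upstream was 2.79, 3.07 and 2.66 in the 3 conditions on the word, against 2.17, 2.21 and 1.86 on the TSS. Promoter by promoter, the highest point near the word spread about as widely under both anchors: in untreated cells its quartiles were -130 and -10 bp from the word, against -100 and 20 bp when the TSS was the anchor. In the heavy digest of 60 min alone, the highest point lay at -130 bp from the word. Promoters of similar sequence may also share the stretches to which reads align uniquely, and the part of this in the taller peak was not tested.

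**Figure D4:**
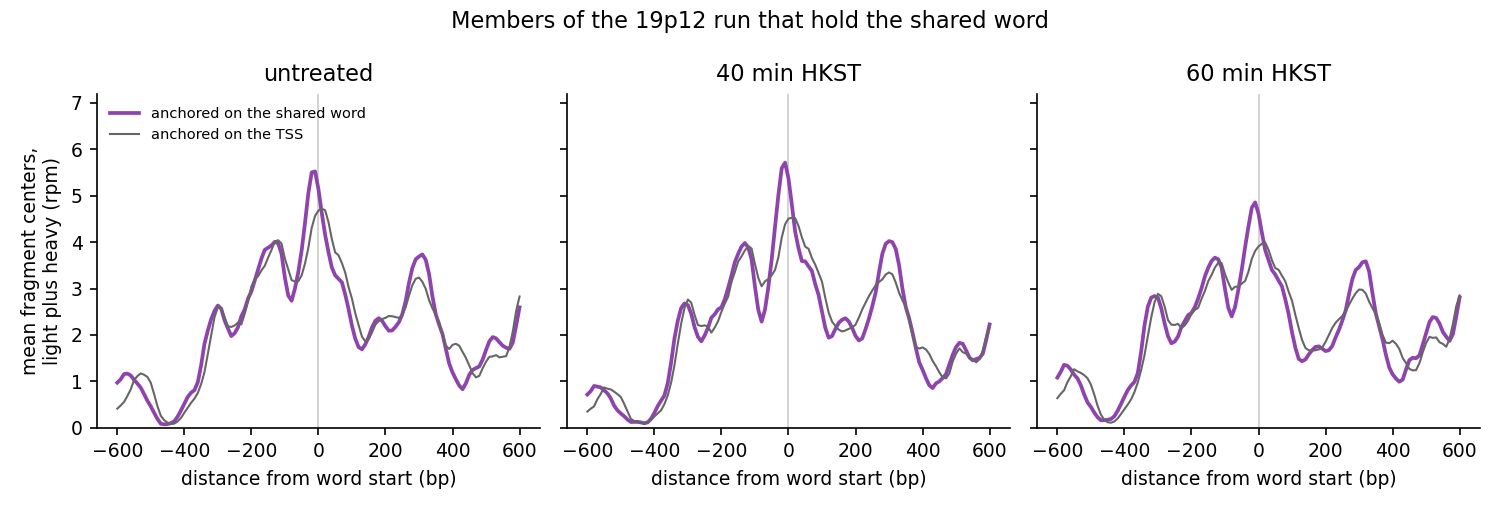
Mean summed rate of fragment centers (rpm, y axis) of 17 promoters of the 19p12 run by distance from the start of the 12-base word (bp, x axis), anchored on the word itself or on the TSS placed at the median distance of 144 bp, in untreated, 40 min and 60 min cells. The word-anchored peak is the higher in each panel, 5.52 against 4.72 rpm in untreated cells.

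The -1 nucleosome, just upstream of the TSS, was compared between digests as the study did, by the log2 ratio of light over heavy from -200 to 0 bp, called sensitivity, after 0.118 rpm was added to both. In the mean profile of the 185 chromosome 19 zinc finger promoters, the upstream peak lay just outside this window. It was at -205 bp in light and -225 bp in heavy digests of each condition. The lowest point of the summed profile lay inside it, at -85, -85 and -75 bp in untreated, 40 min and 60 min cells. Sensitivity here therefore describes the window, depleted stretch included, and not the -1 nucleosome alone. At the chromosome 19 zinc finger promoters the median sensitivity of untreated, 40 min and 60 min cells was 0.13, 0.22 and 0.32 (n = 181 promoters each). All promoters had medians of 0.11, 0.20 and 0.20, and zinc finger promoters of other chromosomes 0.14, 0.28 and 0.33. A ratio of at least 1 was reached by 34, 36 and 47 of the 181, with backgrounds of 12.9%, 19.3% and 20.4%, and a ratio of -1 or less by 13, 15 and 20, with backgrounds of 8.87%, 7.53% and 9.61%. The 19p12 run lay lower than the rest, at -0.28, 0.06 and -0.33, against 0.25, 0.28 and 0.43. The median promoter held 22, 21.5 and 23 fragments in light and 9, 6 and 13 in heavy digests, so single ratios carry wide counting error. When rates were summed over the promoters before the ratio was taken, the values were 0.0701 and 0.0799 for 40 and 60 min. With a window from -250 to -100 bp, the medians were 0.40, 0.40 and 0.42 in untreated, 40 min and 60 min cells.

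The highest and lowest sensitivity in untreated cells was found at genes spread over several runs. ZNF284 held 21 fragments in the light and 1 in the heavy digest (log2 2.39), ZNF613 59 and 5 (2.33), and ZNF333 49 and 5 (2.00). ZNF613, a KRAB zinc finger gene, stayed high with 53 light and 3 heavy fragments at 40 min and 82 and 14 at 60 min. At the other end, ZNF667 held 1 and 9 fragments (-1.99), ZNF135 11 and 23 (-1.65), and ZNF571-AS1, a noncoding gene, 11 and 20 (-1.47). ZNF571-AS1 stayed at -1.54 at 40 min and -1.33 at 60 min, so the resistant state was seen in each condition.

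After HKST, the chromosome 19 zinc finger promoters changed in both directions and, as a set, by little. The median change of sensitivity was 0.10 at 40 min, with 103 of 181 promoters higher, and -0.05 at 60 min, with 85 of 181 higher, against medians of 0.11 and 0.08 over all promoters. The 60 min value had no fixed sign, since it was 0.05 as a mean and 0.04 from summed rates. Among the 153 with at least 30 fragments over the 6 tables, 12 were higher and 12 lower by at least 1 on the log2 scale at 40 min, with backgrounds of 11.2% and 6.09%. At 60 min 17 were higher and 10 lower, with backgrounds of 9.12% and 4.75%. An exact 95% interval for counting error lay above 0 at 4 and below 0 at 2 promoters at 40 min (backgrounds 2.03% and 1.87%), and above 0 at 7 and below 0 at 7 at 60 min (backgrounds 2.73% and 2.72%). These intervals take no account of differences between cultures or digests. With a pseudocount of 0.5 of the mean instead of 0.1, only 2 and 1 promoters were higher and lower at 40 min, and 1 and 1 at 60 min.

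Rises at 60 min were led by ZNF547, ZNF823, ZNF816, ZNF667, ZNF77 and ZNF773. ZNF547 (chr19:57874879) held 17 light and 0 heavy fragments at 60 min and 16 and 3 at 40 min, against 13 and 8 in untreated cells, a change of 2.76 at 60 min (interval from 1.23, with no upper limit) and 0.96 at 40 min. ZNF823 held 21 and 7 fragments at 60 min and 10 and 5 at 40 min, against 7 and 10 in untreated cells, a change of 1.91 (0.40 to 4.65) and 0.65. ZNF77 (chr19:2944969) held 38 and 8 at 60 min and 26 and 4 at 40 min, against 19 and 11, a change of 1.56 (0.15 to 3.61) and 0.94. These 3 KRAB zinc finger genes lie in separate runs, and all had a positive value at both times. The values at both times subtract the same untreated ratio, and the genes were picked by their 60 min rise, so the values are not independent. ZNF667 rose by 1.66 (0.01 to 9.22) with 7 and 7 fragments at 60 min, against 1 and 9 in untreated cells, and its window overlaps that of ZNF667-AS1. ZNF816 and ZNF773 had changes of 1.66 and 1.54 with intervals that held 0.

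Falls at 60 min were led by ZFP82, ZNF93, ZNF284, ZNF256, ZNF677 and ZNF546. ZFP82 (chr19:36909550) held 5 light and 6 heavy fragments at 60 min, against 10 and 0 in untreated cells, a change of -2.31 (no lower limit, upper limit -0.18). ZNF93 held 14 and 16 at 60 min and 11 and 4 at 40 min, against 17 and 3, a change of -1.94 (-4.92 to -0.06) and -1.29. ZNF256 (chr19:58459077), with the most fragments of the 6, held 33 and 38 at 60 min and 31 and 8 at 40 min, against 42 and 13, a change of -1.31 (-2.73 to -0.28) and -0.39. At these 3 genes the heavy count at 60 min was above the untreated one, in a table that was also deeper (7.04 against 5.12 M fragments). ZNF284, ZNF677 and ZNF546 had changes of -1.70, -1.24 and -1.22 with intervals that held 0.

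At 40 min the largest rises were at ZNF614, ZNF791, ZNF254 and ZNF175. ZNF614 (chr19:52531680) held 70 light and 5 heavy fragments at 40 min and 52 and 10 at 60 min, against 40 and 18 in untreated cells, a change of 1.79 (0.42 to 3.93) at 40 min and 1.45 (0.26 to 3.06) at 60 min. It was the only promoter named here whose interval lay above 0 at both times. ZNF254 held 39 and 5 at 40 min and 49 and 25 at 60 min, against 29 and 21, a change of 1.65 (0.22 to 3.80) and 0.84 (-0.25 to 2.07). ZNF791 (1.67) and ZNF175 (1.61), a gene known for repressing HIV transcription, held 1 heavy fragment each at 40 min, and their intervals held 0.

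The largest falls at 40 min were at ZNF677 (-1.80), ZNF880 (-1.76), ZNF329 (-1.62) and ZNF536 (-1.49). ZNF536 held 43 light and 39 heavy fragments at 40 min and 42 and 59 at 60 min, against 68 and 31 in untreated cells. Its change was -1.49 (-2.53 to -0.65) at 40 min and -1.14 (-2.12 to -0.32) at 60 min, the only one named here with an interval below 0 at both times. Light counts were lower and heavy counts higher at both times at this promoter. For the other 3 the intervals held 0.

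**Figure D5:**
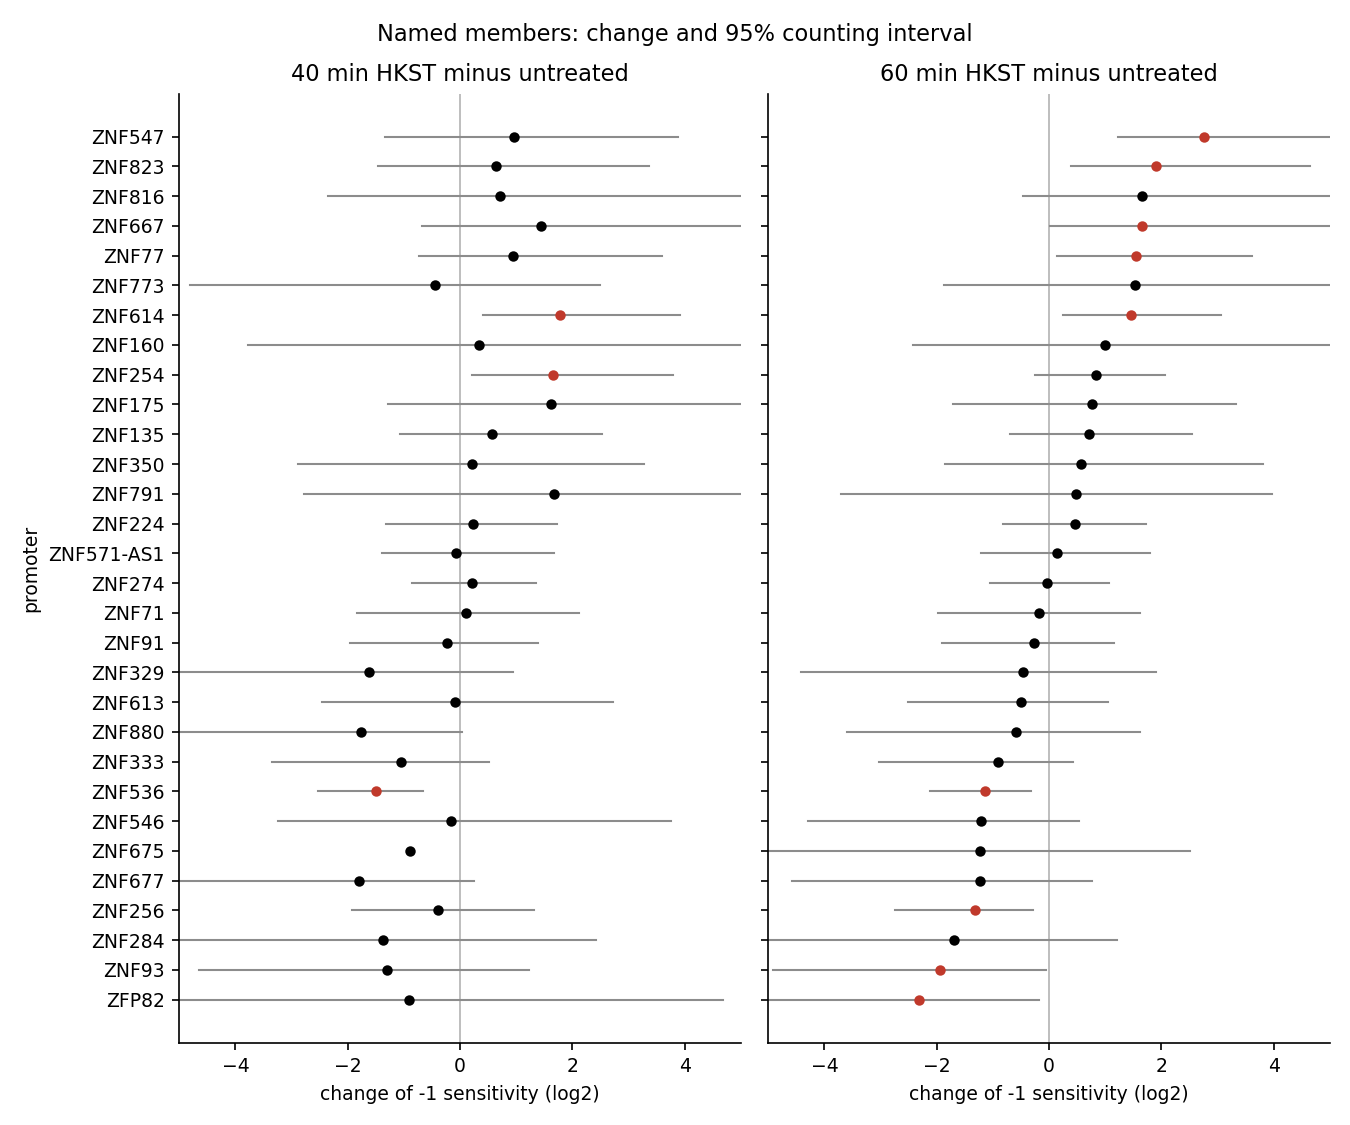
Change of -1 sensitivity (log2, HKST minus untreated, x axis) at 40 min and 60 min for 30 named chromosome 19 zinc finger promoters (y axis), with exact 95% counting intervals as lines that run to the edge where they pass 5 in size or have no limit. Red points mark intervals that exclude 0, which are 3 at 40 min and 9 at 60 min, and ZNF675 at 40 min has no interval because both heavy tables hold 0 fragments.

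Genes followed whatever their values, for known roles in silencing or immune signaling, had changes within counting error where an interval could be given, apart from ZNF93 and ZNF536. ZNF224 (chr19:44598482), a repressor of aldolase A, held 70 light and 16 heavy fragments at 60 min and 57 and 8 at 40 min, against 59 and 14 in untreated cells, with changes of 0.47 (-0.81 to 1.72) and 0.23 (-1.33 to 1.72). Its sensitivity stood above 1 in each condition, at 1.01, 1.25 and 1.48. ZNF274, which brings SETDB1 to zinc finger genes, held 33 and 36 at 60 min and 48 and 22 at 40 min, against 35 and 29, with changes of -0.03 (-1.06 to 1.07) and 0.22 (-0.85 to 1.36). ZNF91 held 17 and 19 at 60 min and 19 and 10 at 40 min, against 20 and 13, with changes of -0.26 (-1.91 to 1.15) and -0.24 (-1.96 to 1.39).

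Genes tied to immune signaling were thinly covered. ZNF675 held 7 light and 4 heavy fragments at 60 min and 2 and 0 at 40 min, against 4 and 0 in untreated cells. ZNF160, known for repressing TLR4, held 5 and 1 at 60 min and 4 and 1 at 40 min, against 2 and 2, and no change was detectable at this depth (0.99, -2.42 to 8.87, at 60 min). ZNF71, a gene first found as induced by TNF, held 14 and 21 at 60 min and 15 and 9 at 40 min, against 10 and 10, with changes of -0.18 (-1.98 to 1.63) and 0.11 (-1.83 to 2.11). ZNF350, a repressor that binds BRCA1, had changes of 0.57 (-1.86 to 3.82) at 60 min and 0.22 at 40 min. ZNF331, which is imprinted, and ZNF382, known for repressing NF-kB and AP-1 targets, had no untreated heavy value, and their sensitivity was -1.83 and 0.72 at 40 min and -0.49 and -0.18 at 60 min.

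Runs differed in the direction of their medians. The run from ZNF575 to ZNF296 at 44.0 to 45.6 Mb, with 20 of its 23 promoters in all 6 tables and ZNF224 among them, had a median sensitivity of 0.50, 0.52 and 0.97 in untreated, 40 min and 60 min cells. Its median change at 40 min was 0.07 and that at 60 min 0.44, where 13 of 20 promoters were higher. The 19p12 run had a median change of 0.40 at 40 min, where 14 of 23 were higher, and of -0.15 at 60 min, where 7 of 23 were higher. These differences between runs were not tested.

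The partners through which KRAB zinc finger proteins silence chromatin were looked at as a list of 28 genes of the TRIM28, SETDB1, HP1, NuRD, HUSH and DNA methylation machinery, of which 25 were in all 6 tables. Over the TSS, 2 of the 25 were above their 2 kb mean in untreated cells, against a background of 18.4%, and the median filling was -2.03, against -1.63 over all promoters. Their median sensitivity was 0.28, 0.53 and 0.41 in untreated, 40 min and 60 min cells. The median change was 0.22 at 40 min, with 14 of 22 higher, and 0.18 at 60 min, with 15 of 23 higher, against 0.11 and 0.08 over all promoters. These counts include thinly covered promoters such as TRIM28, itself on chromosome 19, which held 3 fragments in its -1 window over all 6 tables, too few for a change to be read. Of the 8 with at least 30 fragments, 4 were higher at 40 min and 6 at 60 min.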

How the data were processed

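GM12878 cells were untreated or given HKST, nuclei were digested lightly (20 U) or heavily (200 U), and fragments of 140 to 200 bp were kept. The authors aligned paired reads to hg19 (with Bowtie2 2.2.2, SAMtools and bedtools named in the submitters' processing notes), discarded non-unique and unpaired reads, counted the centers of fragments in windows of 60 bp, moved by 10 bp, and scaled the counts to the depth (rpm). The values are a coverage signal that the authors deposited as 8 tables, each a pool of 2 replicates. A fragment enters 6 windows, so it adds to several values. Table columns of no sample were not used, and the number of unused per-sample columns was 0.

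All values lay within 0.05 of a whole step, so fragment numbers were recovered. Bins without a value were left out, and where they come from is not given in the sources used here. To both digests 0.118 rpm, 0.1 of the mean, was added before the log2 ratio of light over heavy, the sensitivity, was taken. Medians run over the promoters of all 6 tables unless stated otherwise. Single changes carry exact conditional 95% intervals, which cover counting error only and treat fragments as independent molecules. In 500 simulated promoters with the depths of the 60 min and untreated tables, 96.8% of intervals held the true change, and changes of 1 and 2 (log2) were called at 27.0% and 66.0%. The simulated counts were drawn independently, as the interval assumes, so they cover no difference between cultures or digests. Their rates were taken from promoters with at least 30 fragments of the whole series, not from the chromosome 19 zinc finger promoters alone.

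Named were, among promoters with at least 30 fragments, the 6 largest rises and falls at 60 min, the 4 largest of each at 40 min, the 3 highest and lowest in untreated cells, and a short list followed whatever its values. The promoters and lists were chosen with earlier results of these data known. Sequences were read from GRCh37, with GENCODE 44 lifted to that build. Alternatives covered pseudocounts, windows, scaling, filters and summaries. Python 3.11.15, numpy 2.4.6, scipy 1.17.1, pandas 2.3.3, pysam 0.24.0, Biopython 1.88 and matplotlib 3.10.9 were used.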

Additional observations from a re-analysis of the deposited data

How the results depend on the processing

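No paired analysis was possible because each deposited table pools both replicates, and for the same reason no replicate could be left out. Of 134 alternative values of 21 results, 119 stayed within the 95% interval of the median or within 1.5 times the count and 15 moved. The 119 include alternatives that could not move. Each gene had 1 promoter, so taking 1 promoter per gene changed nothing. Leaving out promoters over 50 bp from a GENCODE start removed none of the 24 in the 19p12 run. Of the 119, 5 changed sign, all of medians whose interval included 0. That interval is taken over promoters as if they were independent, and it covers no spread between replicates or digests. For the filling of the 19p12 run at 40 min it ran from -0.82 to 0.86, so staying within it says little there. The change at 60 min was 0.053 as a mean and 0.036 from summed rates, against -0.05. The filling of the 19p12 run at 40 min was -0.075 with a window from -150 to 0 bp, against 0.17. The light over heavy ratio of the +1 window at 60 min was 0.023 with a window from 100 to 200 bp and 0.014 without the 19p12 run, against -0.04. The median -1 sensitivity of untreated cells was 0.40 with a window from -250 to -100 bp, against 0.13. At 40 min it was 0.12 with a pseudocount of 0.5 of the mean and 0.0701 from summed rates, against 0.22, and at 60 min 0.0799 from summed rates, against 0.32. Counts of changed promoters moved most. With a threshold of 1.5, 4 were higher and 3 lower at 40 min, and 6 higher and 3 lower at 60 min. With a pseudocount of 0.5 of the mean, 2 were higher and 1 lower at 40 min, and 1 higher and 1 lower at 60 min. With at least 60 fragments, 10 were higher and 6 lower at 60 min, where fewer promoters were tested. With missing bins taken as 0, the median filling outside the 19p12 run in untreated cells was -1.32, against -1.53. Leaving out the 19p12 run or promoters over 50 bp from a GENCODE start, using 1 digest only and counting missing bins as 0 were chosen after seeing the data. The cause of these shifts was not tested. A split by encoded protein class was not run.

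At 9 heavy fragments per median promoter in untreated cells and 6 at 40 min, changes of 1 at single promoters are mostly not detectable, and of the 23 promoters named by size, 13 held 5 or fewer heavy fragments in untreated cells.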
